A study of Homo sapiens with 4 samples.

Results

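The 5 troponin genes TNNT2, TNNI1, TNNI3, TNNC1 and TNNT1 and their transcripts were followed through the RNA of day 14 cardiomyocyte cultures. The members were picked by gene symbol, with earlier results of these data known, and no measured value enters the rule. They are 5 of the 23615 gene symbols and 13 of the 43497 transcripts in the deposited tables. All 4 libraries came from the RUES2 line of human embryonic stem cells after A100/B5 induction, which is activin A at 100 ng/ml with BMP4 at 5 ng/ml, and poly-A RNA was taken from the whole, unsorted culture at day 14. The CPC group (2 libraries) holds cardiomyocytes made by way of cardiac progenitor cells, which received 1 µM XAV on day 3 as the study's scheme draws it. The ECsXAV group (2 libraries) holds cardiomyocytes made from A100/B5 hemogenic endothelial cells (ECs), which were given VEGF from day 2 and 2 µM XAV from day 5. XAV-939 is a tankyrase inhibitor that blocks Wnt/β-catenin signaling. By the study's scheme both groups saw XAV, at a different dose and time, and there was no XAV-free group. The study's methods, though, give XAV on day 3 for only some experiments of the cardiac route. From day 2 the ECs were also kept in another medium, with bFGF and further BMP4. None of these differences can be told apart from the group. The study calls the 2 libraries of a group biological replicates. The sample names of the groups begin differently, and no label says what these beginnings mark. A batch difference between the groups, if there was one, could not be told apart from the group. The comparison asks how far cardiomyocytes redirected from ECs differ in their troponins from those of the standard cardiac route.

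Troponin is the calcium switch of striated muscle and sits on the actin thin filament as a complex of one C, one I and one T subunit. Troponin C binds calcium, troponin I holds back the actin-myosin interaction until calcium is bound, and troponin T anchors the complex to tropomyosin. TNNC1 encodes the C subunit of heart and slow muscle, TNNI1 the slow skeletal I subunit that the fetal heart uses, TNNI3 the cardiac I subunit that replaces it as the heart matures, TNNT2 cardiac troponin T and TNNT1 slow skeletal troponin T. TNNC2, TNNI2 and TNNT3 encode the fast skeletal subunits and were measured alongside. TNNT2 RNA is also spliced differently in the fetal and the adult heart, through short alternative exons near its 5′ end.

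In the GRCh37 (hg19) annotation of GENCODE, TNNT2 lies on chromosome 1 from 201328136 to 201346892 and TNNI1 on the same minus strand from 201372912 to 201398994. TNNI3 and TNNT1 are neighbours on the minus strand of chromosome 19, TNNI3 from 55663135 to 55669141 and TNNT1 from 55644066 to 55660574, with 2560 bases between them. TNNC1 lies on chromosome 3 from 52485116 to 52488057. Another annotated protein-coding gene overlaps TNNI3 on the same strand, and a long non-coding RNA overlaps TNNT2, so reads over the shared stretches cannot be assigned to one gene with certainty. A pseudogene on the opposite strand overlaps TNNI1.

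The 30-base TNNT2 exon that marks the fetal heart and a 15-base exon near it are short exons by which annotated TNNT2 transcripts differ, and they are shown as examples of the alternative splicing of this gene. Of 14 annotated protein-coding transcripts that span them, 6 hold the 30-base exon and 11 hold the 15-base exon. Exon bases are in capitals, with 15 intron bases in lower case on each side, 5′ to 3′ on the minus strand of GRCh37. The first lies at chr1:201338944-201338973 and the second at chr1:201341155-201341169.
30-base exon: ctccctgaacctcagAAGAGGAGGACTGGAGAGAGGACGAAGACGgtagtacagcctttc
15-base exon: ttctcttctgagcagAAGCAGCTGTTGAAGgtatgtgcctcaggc

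The RefSeq transcript names of the isoform table were not matched to these exons, so which listed transcript holds the fetal exon is not given here.

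The authors deposited FPKM, the fragments of a gene per kilobase of its length and of the mapped fragments of the library, which allows levels of different genes to be set side by side. Total read counts per library are unknown. The steps between the lowest FPKM put the relative depth at 50.1% to 86.9% of that of ECsXAV replicate 1 in the other 3 libraries, with ECsXAV replicate 2 the shallowest. All 8 cardiomyocyte marker genes fixed for the check of the label were above 1 FPKM, with summed levels of 13888 and 13209 FPKM in the ECsXAV libraries and 11014 and 11459 FPKM in the CPC libraries. Of these, MYH6 was called higher in CPC and MYH7 and NPPA were called lower. The largest part of each sum was MYL7, with 8786 and 8535 FPKM in ECsXAV and 6701 and 7142 FPKM in CPC, not called. MYL4 (2394 and 1988 against 1590 and 1741 FPKM) and ACTN2 were also lower in CPC and not called, and TTN and RYR2 overlapped. Skeletal muscle regulators were at or near 0, with MYF5 and MYF6 listed at 0 in all 4 libraries and MYOD1 at 0 in 3. Of the remaining skeletal markers, CKM (309 to 440 FPKM) and ACTN3 (37.2 to 130 FPKM) were the 2 above 1 FPKM on average, and ACTN3 was called higher in CPC. Summed markers of smooth muscle (267 to 297 against 141 to 168 FPKM), fibroblasts (105 to 140 against 43.7 to 50.4 FPKM) and endoderm (30.6 to 36.5 against 16.5 to 18.3 FPKM) were higher in the ECsXAV libraries than in the CPC libraries. Within the smooth muscle list, TAGLN (108 to 116 against 15.8 to 22.6 FPKM) was called lower in CPC and CNN1 was 94.2 to 94.9 against 45.5 to 60.5 FPKM, whereas ACTA2 and SMTN overlapped and MYH11 stayed under 1 FPKM. Among the fibroblast genes, COL1A1, COL3A1 and LUM were called lower in CPC and DCN stayed under 1 FPKM. POSTN went the other way, with at most 7.08 FPKM in ECsXAV and 7.15 to 8.83 FPKM in CPC. Of the endoderm genes, AFP (9.7 to 11.4 against 0.124 to 0.199 FPKM) and TTR were called lower in CPC. APOA1, the most abundant of them, was 17.9 to 20.6 against 15.9 to 17.8 FPKM and was not called. Endothelial markers summed to at most 3.21 FPKM in ECsXAV and 1.58 FPKM in CPC. These sums move with the group and stand beside every result below, and their part in the results was not tested. In bulk RNA, fewer cells of a type and less RNA per cell cannot be told apart.

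The 5 genes covered more than 2 orders of magnitude and kept 1 order, TNNT2, TNNC1, TNNI1, TNNI3 and TNNT1, in all 4 libraries, with no overlap between neighbours. TNNT2, the anchor of the complex, had 2453 and 2309 FPKM in ECsXAV and 2696 and 2988 FPKM in CPC. It ranked between 2 and 4 among all symbols in every library and took 0.730% to 0.991% of the summed FPKM. TNNC1, the calcium sensor, had 1304 and 1224 FPKM in ECsXAV and 958 and 1052 FPKM in CPC, ranks 11 to 17. These were the most abundant troponin RNAs of both groups. TNNI1 had 278 and 322 FPKM in ECsXAV and 308 and 332 FPKM in CPC, and its groups overlapped. TNNI3 had 61.0 and 79.0 FPKM in ECsXAV and 27.6 and 38.7 FPKM in CPC, so that every ECsXAV library was above both CPC libraries. TNNT1 had 11.0 and 15.4 FPKM in ECsXAV and 5.85 and 8.06 FPKM in CPC, again without overlap. The immature I subunit was thus the main one in both groups, and slow skeletal troponin T was a trace beside cardiac troponin T.

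**Figure D1:**
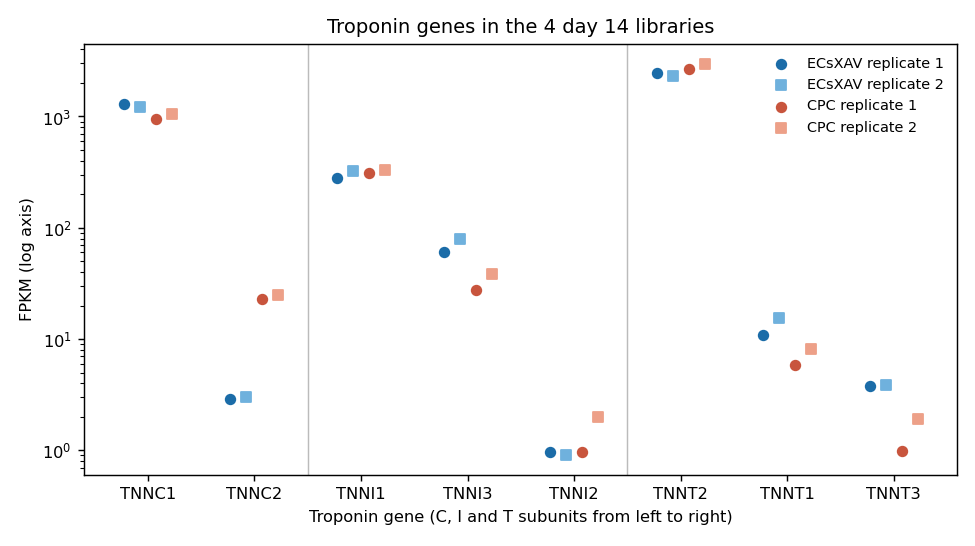
FPKM (log axis) of the 8 troponin genes in each library, with C, I and T subunits from left to right, ECsXAV in blue and CPC in red, and circles and squares for replicates 1 and 2. TNNT2, TNNC1 and TNNI1 sit close together across the 4 libraries, TNNI3 and TNNT1 are lower in both CPC libraries, and TNNC2 rises from about 3 FPKM in ECsXAV to 22.9 and 25.0 FPKM in CPC.

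None of the 5 members passed the criterion, a change of more than 2-fold with an adjusted p under 0.05 in limma with Benjamini-Hochberg adjustment over 12398 genes. Of all genes, 266 (2.15%) met it. At an unadjusted p under 0.05, 2 members (TNNI3 and TNNT1) counted, beside 18.2% of all genes. The libraries of the groups did not overlap for 4 members (TNNI1 the exception), and for 49.8% of all genes. The members' median log2 fold change, CPC minus ECsXAV, was -0.33, beside -0.0045 over all genes tested. Fold changes are on log2(FPKM + 1), which understates the change of low genes.

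TNNI3 had the largest difference among the members. Its mean was 70.0 ± 12.7 FPKM (SD, n = 2) in ECsXAV and 33.2 ± 7.80 FPKM (SD, n = 2) in CPC, 2.11-fold apart. The limma log2 fold change was -1.06 (standard error 0.22, 95% interval -1.62 to -0.50, adjusted p = 0.0856), so it missed the criterion on its adjusted p. With a robust variance prior in limma, an alternative that called 344 genes (2.77%), the same difference had an adjusted p of 0.0221 and passed. A further alternative, added with the values in view, left out short RNA genes and genes at 0 in a library beside at least 5 FPKM in its replicate. It called 340 of 12064 genes, and the limma adjusted p of TNNI3 was 0.00608. That choice removes genes whose replicates disagree, from which limma estimates the spread, so the lower adjusted p is no separate support. Over all alternatives the adjusted p ran from 7.2e-05 to 0.377, and the value from -1.30 to -0.83. The direction therefore held under each alternative run, but without overlap between the groups, leaving out a library could not turn it. With all libraries, the call depended on how the spread was estimated. The fold itself fell under 2 without ECsXAV replicate 2 (-0.88) and without CPC replicate 1 (-0.83).

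TNNT1 followed with a mean of 13.2 ± 3.11 FPKM (SD, n = 2) in ECsXAV and 6.95 ± 1.57 FPKM (SD, n = 2) in CPC. Its log2 fold change was -0.83 (standard error 0.22, 95% interval -1.40 to -0.26, limma adjusted p = 0.143). It passed the criterion under none of the alternatives run at the gene level, because its fold stayed under 2 or its adjusted p over 0.05.

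For the 3 abundant members the intervals lay within 2-fold. TNNT2 had a log2 fold change of 0.25 (standard error 0.18, 95% interval -0.21 to 0.71, limma adjusted p = 0.518). TNNC1 had one of -0.33 (standard error 0.15, 95% interval -0.73 to 0.07, limma adjusted p = 0.349). TNNI1 had one of 0.10 (standard error 0.14, 95% interval -0.27 to 0.46, limma adjusted p = 0.783), and without ECsXAV replicate 1 it was -0.01.

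**Figure D2:**
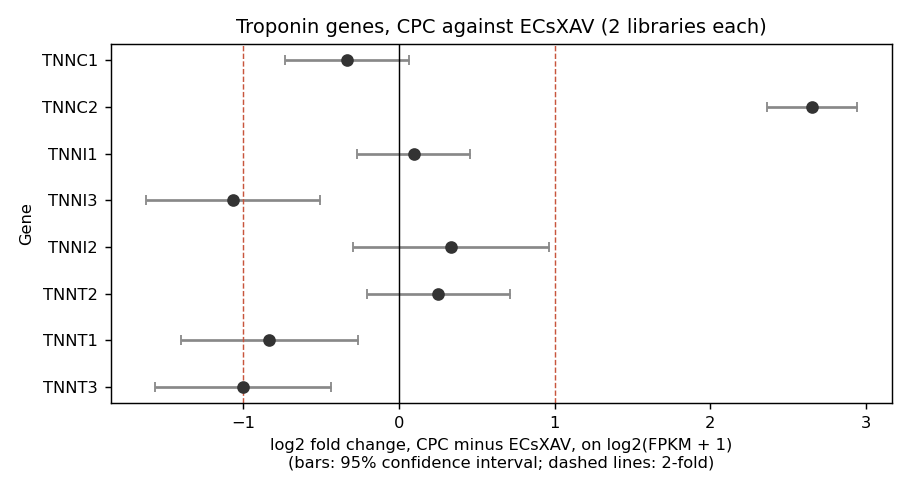
Log2 fold changes (CPC minus ECsXAV, on log2(FPKM + 1)) of the 8 troponin genes with 95% confidence intervals from limma, where dashed lines mark 2-fold. TNNC2, at 2.65, is the one gene whose interval lies beyond 2-fold, and the intervals of TNNI3, TNNT1 and TNNT3 lie below 0.

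Of the 3 fast skeletal genes, TNNC2 rose in CPC. It had 2.92 and 3.01 FPKM in ECsXAV and 22.9 and 25.0 FPKM in CPC, a log2 fold change of 2.65 (standard error 0.11, limma adjusted p = 0.00291). Its only listed transcript, NM_003279, had the same FPKM and a limma adjusted p of 0.0504 over all transcripts. TNNC2 remained a small part of troponin C RNA, with 0.223% and 0.245% of TNNC1 plus TNNC2 in ECsXAV and 2.33% and 2.32% in CPC. TNNT3 had 3.76 and 3.89 FPKM in ECsXAV and 0.988 and 1.92 FPKM in CPC, a log2 fold change of -1.002 (standard error 0.22, limma adjusted p = 0.0989), and the robust prior gave an adjusted p of 0.0253. TNNI2 had 0.958 and 0.904 FPKM in ECsXAV and 0.971 and 2.01 FPKM in CPC (log2 fold change 0.34, limma adjusted p = 0.534). Its value was 0.03 without CPC replicate 2 and 0.64 without CPC replicate 1. Together the 5 members made up 99.3% to 99.8% of the FPKM of all 8 troponin genes in every library.

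Ratios within a library do not depend on its scaling. With 2 libraries in each group, the smallest two-sided p of an exact permutation test is 0.333, and the values are given as descriptions. TNNI3 made up 18.0% and 19.7% of TNNI1 plus TNNI3 in ECsXAV and 8.23% and 10.4% in CPC, a difference of -9.51 percentage points (exact permutation p = 0.333, two-sided). Per 100 FPKM of TNNT2, TNNI3 had 2.49 and 3.42 FPKM in ECsXAV and 1.03 and 1.29 FPKM in CPC. TNNI1 had 11.3 and 13.9 FPKM per 100 of TNNT2 in ECsXAV and 11.4 and 11.1 in CPC, and here the groups overlapped. Of the I subunits, TNNI3 and not TNNI1 thus had ratios to TNNT2 without overlap between the groups. Levels did not overlap for 49.8% of all genes, and no such share was computed for ratios.

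TNNT1 made up 0.446% and 0.662% of TNNT1 plus TNNT2 in ECsXAV and 0.216% and 0.269% in CPC (exact permutation p = 0.333, two-sided). TNNT1 had 18.0 and 19.5 FPKM per 100 of TNNI3 in ECsXAV and 21.1 and 20.8 in CPC. The ratio of these neighbouring genes thus lay between 18.0 and 21.1 and was higher in CPC without overlap. Each gene ranged over more than 2-fold, and in both groups replicate 2 was above replicate 1 for both genes.

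The ratio of the C to the T subunit was close between replicates and apart between the groups. TNNC1 had 53.1 and 53.0 FPKM per 100 of TNNT2 in ECsXAV and 35.5 and 35.2 in CPC (53.1 ± 0.0852 against 35.4 ± 0.207, SD, n = 2). The difference of -17.7 was larger than the differences between replicates, but 2 libraries per group measure that spread poorly. Its exact permutation p was 0.333, the smallest that this design allows. Neither gene was called on its own (limma adjusted p = 0.349 for TNNC1 and 0.518 for TNNT2). Ratios of gene pairs over the whole data were not run as a background. The same ratio is given for 3 other sarcomere genes, chosen after their values were seen. All these ratios have TNNT2 as denominator, which was higher in both CPC libraries, so they are not independent of each other. TPM1, which encodes the tropomyosin that troponin T binds, had 140.0 and 134 FPKM per 100 of TNNT2 in ECsXAV and 93.3 and 97.5 in CPC. MYL7, the atrial regulatory light chain, had 358 and 370 in ECsXAV and 249 and 239 in CPC. ACTC1, cardiac actin, had 45.7 and 48.0 in ECsXAV and 46.7 and 41.2 in CPC, with overlap. Per 100 FPKM of MYL7, TNNC1 had 14.8, 14.3, 14.3 and 14.7 FPKM in the 4 libraries and the groups overlapped. MYL7 was among the 3 genes nearest to TNNC1 in profile, of 5525 compared, so a steady ratio follows from this choice.

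**Figure D3:**
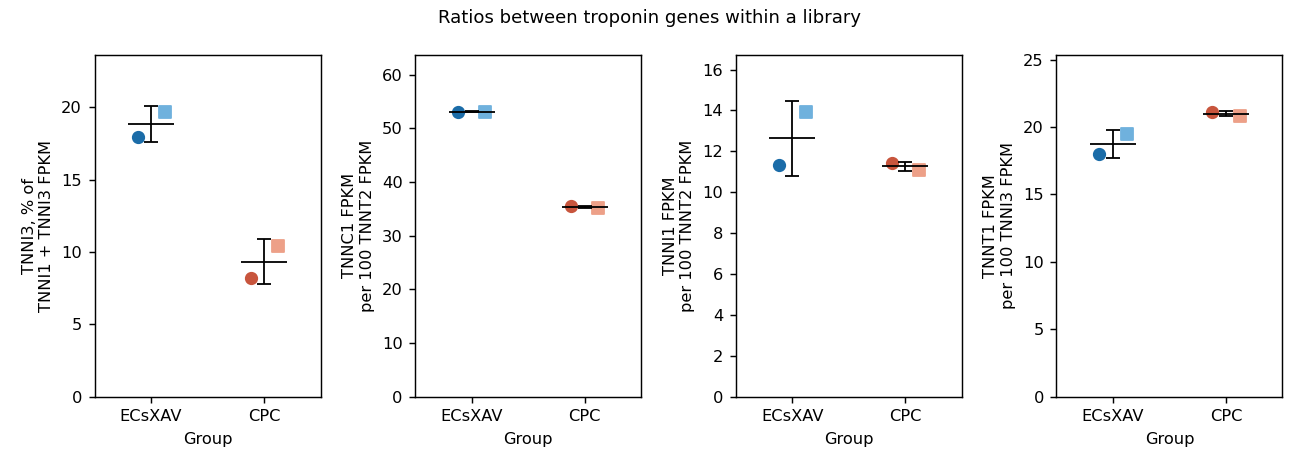
Ratios between troponin genes within each library (circles for replicate 1, squares for replicate 2), with the mean and SD of 2 libraries per group in black and all vertical axes starting at 0. TNNI3 as a percentage of TNNI1 plus TNNI3 and TNNC1 per 100 TNNT2 are lower in CPC, and TNNI1 per 100 TNNT2 overlaps. TNNT1 per 100 TNNI3 lies between 18.0 and 21.1 and is higher in CPC without overlap.

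At the transcript level TNNI1, TNNI3 and TNNC1 each had 1 listed transcript (NM_003281, NM_000363 and NM_003280), TNNT2 had 7 and TNNT1 had 3. Of these 13, 10 had a mean of at least 1 FPKM. None of the 10 passed the criterion in limma, which 12 of 16504 transcripts (0.0727%) met. NM_000363 has the same FPKM as the TNNI3 gene, and its limma adjusted p over all transcripts was 0.238, and 0.247 with the robust prior. At an unadjusted p under 0.05 there were 4 of the 10, beside 13.1% of all transcripts.

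TNNT2 RNA was assigned mainly to NM_000364, NM_001001432 and NM_001001431 in every library. NM_000364 took 53.2% and 53.6% of TNNT2 FPKM in ECsXAV and 58.3% and 57.5% in CPC. NM_001001432 took 27.7% and 24.4% in ECsXAV and 31.1% and 30.1% in CPC. NM_001001431 took 12.7% and 13.6% in ECsXAV and 3.40% and 6.27% in CPC. The first pair was thus higher in CPC and NM_001001431 lower, without overlap in any of the 3, beside 36.2% of all shares tested. Shares within a gene add up to the whole, so a lower share of NM_001001431 goes with higher shares of others. The 3 differences are therefore not independent. NM_001276346 (3.34% to 4.82%) and NM_001276347 (1.75% to 3.51%) overlapped between the groups, and NM_001001430 and NM_001276345 were under 0.01 FPKM in all libraries.

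NM_001001431 had 312 and 315 FPKM in ECsXAV and 91.7 and 188 FPKM in CPC, with a log2 fold change of -1.25 (standard error 0.38, limma adjusted p = 0.335). It was -0.74 without CPC replicate 1 and -1.76 without CPC replicate 2. Its share differed by -8.34 percentage points (unadjusted p = 0.00534, limma adjusted p = 0.516). The replicates differed by 0.917 percentage points in ECsXAV and by 2.87 in CPC, and CPC replicate 1 was well below CPC replicate 2 in its level. NM_000364 did not pass either, with a log2 fold change of 0.37 (standard error 0.13, limma adjusted p = 0.379) and a share difference of 4.51 percentage points (adjusted p = 0.72 in limma). NM_001001432 had a log2 fold change of 0.49 (standard error 0.15, limma adjusted p = 0.334) and a share difference of 4.55 percentage points. NM_001276346 had 81.9 and 111 FPKM in ECsXAV and 104 and 130 FPKM in CPC. NM_001276347 had 75.6 and 81.1 FPKM in ECsXAV and 90.5 and 52.3 FPKM in CPC.

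Across the table, 0 of 13384 transcript shares (0.0%) passed the criterion of an adjusted p under 0.05 and a difference of at least 10 percentage points, and 940 (7.02%) had an unadjusted p under 0.05. The share analysis gave 0 calls under every alternative run in limma as well. The 8 member shares tested held 1 with an unadjusted p under 0.05 (NM_001001431) and 3 whose groups did not overlap, beside 36.2% of all shares. Among the 462 transcripts of genes with at least 100 FPKM, replicates differed by a median of 2.28 percentage points in ECsXAV and 2.81 in CPC, and the 90th percentiles were 8.77 and 13.4. Of the 10 transcripts of genes with at least 1000 FPKM, 5 are those of TNNT2, with NM_001001431 among them, so their spread is not an independent reference. Among these 10, the medians were 2.36 and 2.24 and the 90th percentiles 13.2 and 6.87. These are differences between single libraries, whereas the -8.34 percentage points of NM_001001431 are a difference between means of 2.

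TNNT1 shares varied widely between the ECsXAV replicates, and the groups overlapped for all 3 transcripts. NM_001126132 took 74.3% and 12.5% of TNNT1 FPKM in ECsXAV and 60.9% and 63.3% in CPC. NM_001126133 took 25.7% and 75.4% in ECsXAV and 20.4% and 36.7% in CPC. NM_003283 took 12.1% in ECsXAV replicate 2 and 18.7% in CPC replicate 1 and was near 0 in the other 2 libraries. The ECsXAV replicates therefore differed by 61.8 percentage points in NM_001126132, in a gene of 11.0 and 15.4 FPKM, and no TNNT1 transcript passed the test. Cufflinks estimates how shared reads divide among transcripts, and the error of that estimate was not used here.

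**Figure D4:**
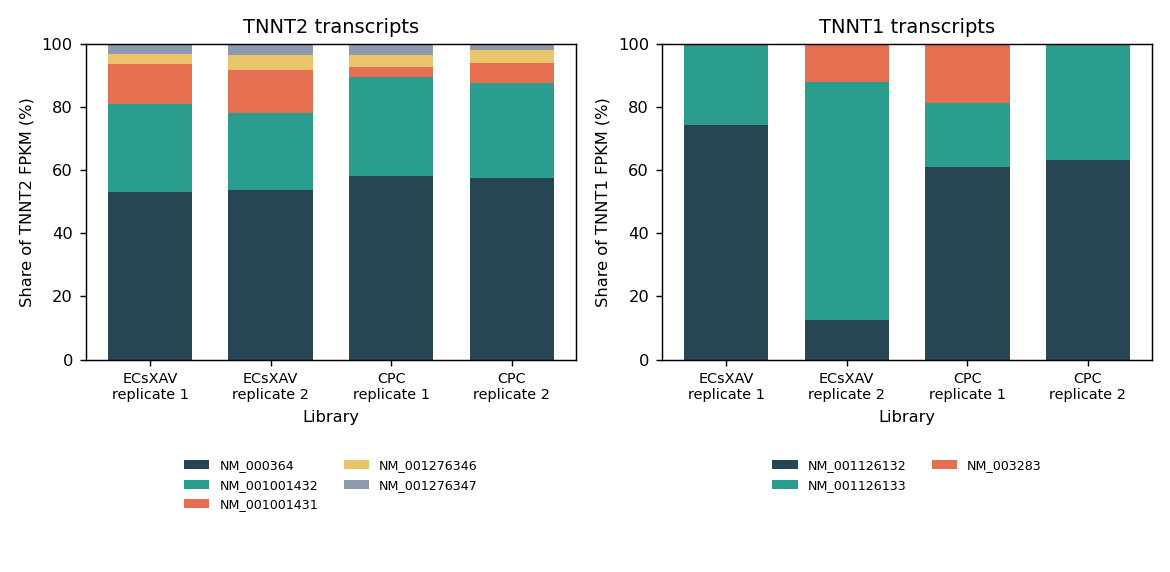
Stacked shares (%) of TNNT2 FPKM (left) and TNNT1 FPKM (right) by RefSeq transcript in each of the 4 libraries. In TNNT2 the shares of NM_000364 and NM_001001432 are higher in both CPC libraries and that of NM_001001431 is lower (12.7% and 13.6% in ECsXAV, 3.40% and 6.27% in CPC), while in TNNT1 the ECsXAV replicates differ from each other by 61.8 percentage points in NM_001126132.

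The other genes of the thin filament gave no calls. Of 15 listed, 12 were tested and none passed (background 0.71% higher and 1.44% lower in CPC), with 5 of 12 higher in CPC and a median log2 fold change of -0.12. The largest were LMOD2, a leiomodin that elongates thin filaments (-0.37, limma adjusted p = 0.459), and TPM4 (-0.29, limma adjusted p = 0.349). TMOD4, NEB and NRAP were under 1 FPKM.

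Kinases and phosphatases that act on troponin I and T likewise gave no calls among 11 tested of 12, beside 2.15% of all genes. Their median was 0.06, beside -0.0045 over all genes. PRKD1, a protein kinase that phosphorylates cardiac troponin I, had 1.74 and 1.69 FPKM in ECsXAV and 5.54 and 4.06 FPKM in CPC (log2 fold change 1.08, limma adjusted p = 0.0516). PRKCA, which encodes protein kinase C alpha, had 7.46 and 7.19 FPKM in ECsXAV and 5.26 and 4.30 FPKM in CPC (-0.53, limma adjusted p = 0.129). TNNI3K, named for its binding to cardiac troponin I, had 6.09 and 4.80 FPKM in ECsXAV and 7.16 and 6.22 FPKM in CPC.

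Of 14 splicing regulators known for TNNT2 or for other heart transcripts, 13 were tested. None passed the criterion, which 2.15% of all genes met, and the median was -0.07, beside -0.0045 over all genes. RBM20, which controls titin splicing, had 31.3 and 31.9 FPKM in ECsXAV and 14.96 and 16.6 FPKM in CPC. Its log2 fold change was -0.96 (standard error 0.11, limma adjusted p = 0.0292), so that the fold fell short of 2. CELF2, which promotes inclusion of the fetal TNNT2 exon shown above, had 16.1 and 15.1 FPKM in ECsXAV and 28.5 and 20.6 FPKM in CPC (0.60, limma adjusted p = 0.172). MBNL1, which acts against the CELF proteins on that exon, had 8.70 and 8.89 FPKM in ECsXAV and 8.76 and 6.16 FPKM in CPC.

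All 10 transcription factors listed for troponin promoters were expressed, and none passed the criterion that 2.15% of all genes met. In CPC 5 were higher and 5 lower, and 4 had an unadjusted p under 0.05, beside 18.2% of all genes. The largest differences were those of SRF, with 16.5 and 18.9 FPKM in ECsXAV and 26.4 and 27.5 FPKM in CPC (log2 fold change 0.58, limma adjusted p = 0.0837), and MEF2C, with 23.4 and 19.1 against 33.5 and 30.5 FPKM (0.57, limma adjusted p = 0.124). TEAD1, which binds the CATTCC element of muscle promoters, had 27.3 and 26.6 FPKM in ECsXAV and 20.4 and 18.2 FPKM in CPC. GATA4, which binds GATA elements, had 99.4 and 105 FPKM in ECsXAV and 80.2 and 108 FPKM in CPC.

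**Figure D5:**
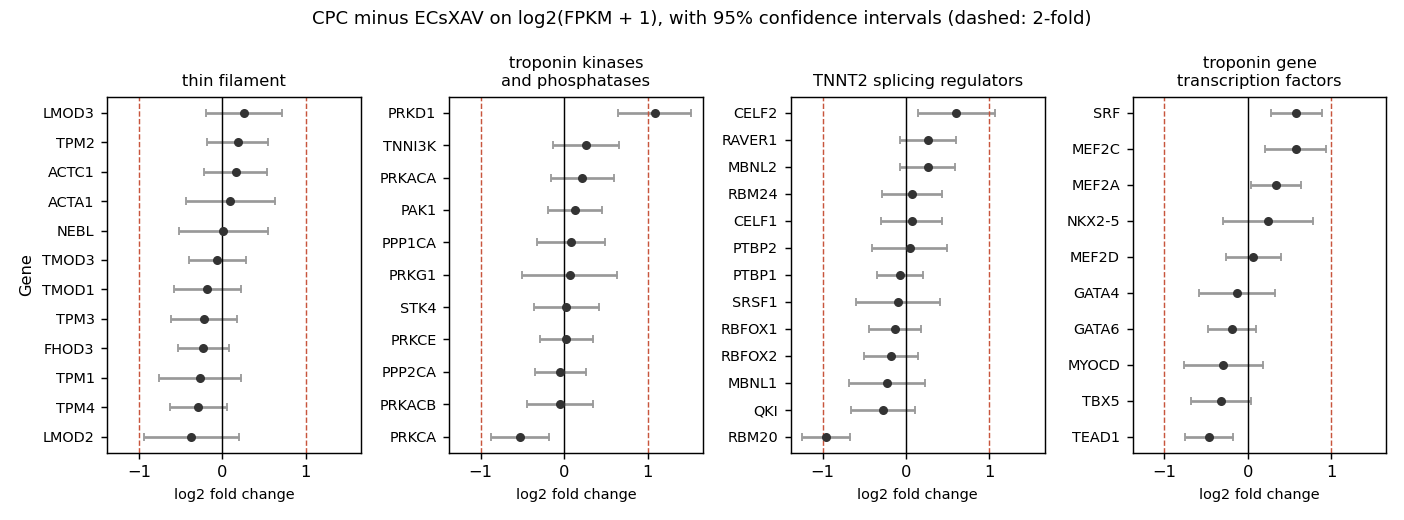
Log2 fold changes (CPC minus ECsXAV, on log2(FPKM + 1)) with 95% confidence intervals of the tested genes of 4 lists, and dashed lines at 2-fold. Points lie on both sides of 0 in each list, and PRKD1 at 1.08 is the one estimate beyond 2-fold. No gene of these lists passed the criterion, which 2.15% of all genes met.

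Promoter sequence was shown for TNNT2, TNNI3 and TNNT1, the 3 of 8 troponin genes in the RefSeq promoter table (GRCh38.p14). The reason was that the ratio of TNNT1 to TNNI3 varied less over the libraries than the ratio of either gene to TNNT2. Each run is the 120 bases before the gene's start, 5′ to 3′ on the minus strand, and capitals mark matches to CATTCC or GATAA on either strand. The stretches are chr1:201377681-201377800 for TNNT2, chr19:55157733-55157852 for TNNI3 and chr19:55149207-55149326 for TNNT1.
TNNT2: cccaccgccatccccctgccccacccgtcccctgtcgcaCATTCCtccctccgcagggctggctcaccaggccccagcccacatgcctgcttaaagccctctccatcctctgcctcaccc
TNNI3: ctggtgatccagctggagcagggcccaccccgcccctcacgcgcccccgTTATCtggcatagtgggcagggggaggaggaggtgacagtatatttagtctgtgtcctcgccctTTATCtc
TNNT1: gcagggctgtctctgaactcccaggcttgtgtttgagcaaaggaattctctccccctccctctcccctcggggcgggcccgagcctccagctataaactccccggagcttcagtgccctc

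In the 300-base window of the table, TNNI3 had 2 GATAA matches, both on the opposite strand, which begin 71 and 7 bases before the start. TNNT2 had 1 CATTCC match that begins 81 bases before the start and 1 GATAA match 225 bases before it, outside the stretch shown. TNNT1 had neither. No window of the 3 matched the MEF2 consensus. Of 35116 windows, 22.7% held GATAA, 14.0% held CATTCC and 2.99% held the MEF2 consensus. These matches describe the letters of the window, not binding, and the motifs do not overlap each other.

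For each member, the 3 genes with the most similar profile were found among 5525 genes with a mean of at least 10 FPKM, as the smallest distance between centred log2(FPKM + 1) values over the 4 libraries. TNNC1 was nearest to ATP5H, PPP3CC and MYL7 (distances 0.0467, 0.0471 and 0.0471). TNNI3 was nearest to FITM1, JUN and TNFRSF12A (0.0503, 0.0511 and 0.0969), and TNNT1 stood at place 14 (0.245). JUN, a subunit of the AP-1 transcription factor, had 30.6 and 38.9 FPKM in ECsXAV and 12.9 and 19.0 FPKM in CPC. TNNT1 was nearest to IER3, YIF1A and TMEM120A (0.0701, 0.111 and 0.130). TNNT2 was nearest to EBNA1BP2, C10orf114 and DNTTIP2 (0.0226, 0.03 and 0.04), and TNNI1 to CAPN1, NTHL1 and PPM1G (0.0246, 0.0252 and 0.0327). With 4 libraries many genes have such profiles, and the distances are descriptions.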

How the data were processed

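Poly-A RNA of 4 libraries, 2 per group, was analysed from FPKM values that the authors deposited per gene and per transcript. The authors computed FPKM with Cufflinks and UCSC gene annotations, and the submitters' processing notes name TopHat 1.3.3, Cufflinks and hg19. The authors' test on read counts was not repeated, since counts were not used here. FPKM carry no read totals, so only relative depth could be estimated, from the ratio of the lowest FPKM steps.

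For symbols with several rows the row with the highest mean FPKM was used. Genes and transcripts with a mean of at least 1 FPKM were tested as CPC minus ECsXAV on log2(FPKM + 1) in R 4.3.3 (limma 3.58.1), with an intensity trend and Benjamini-Hochberg adjustment. Transcript shares of a gene's summed FPKM were tested with limma on the arcsine square root scale, for mean shares of 1% to 99%. Within-library ratios were tested with an exact two-sided permutation test in SciPy 1.17.1. The gene and share fits were run on simulated data with large planted changes. The simulated spread of shares was smaller than that between the real replicates over all transcripts, so power for these data was not measured. Other steps ran in Python 3.11.15 (NumPy 2.4.6, pandas 2.3.3, matplotlib 3.10.9). GENCODE in its GRCh37 lift gave positions, overlaps and exons.

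The members and gene lists were chosen with earlier results of these data known. Named were the 5 members, their transcripts with at least 1 FPKM, the fast skeletal genes, from each list genes past the criterion or otherwise the 2 largest fold changes, and the 3 genes nearest to each member. TPM1, ACTC1, MYL7, TNNI3K, MBNL1, TEAD1, GATA4 and the genes listed at or near 0 were named after their values were seen.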

Additional observations from a re-analysis of the deposited data

How the results depend on the processing

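Of the 75 alternative values of the 5 gene-level fold changes, 70 kept their direction and their side of the criterion. TNNI3 (-1.06) passed with a robust variance prior, with the replicate number as a block (limma adjusted p = 0.0388), without short RNA genes and genes at 0 beside 5 FPKM, and with that choice and the block together (limma adjusted p = 7.2e-05), so that each of these 4 settings called 1 member in place of 0. The block brought the calls over all genes from 266 to 176. Same-numbered libraries deviated together over 12398 genes (Spearman's rho 0.356, Pearson's r 0.035) and over 12064 without short RNA genes and genes at 0 beside 5 FPKM (0.378 and 0.303), but 2 pairs do not show that the numbers pair the samples. TNNI1 turned to -0.00978 without ECsXAV replicate 1. Without each library in turn, TNNI1 ran from -0.01 to 0.20, TNNI3 from -1.30 to -0.83, the difference in the TNNI3 share from -10.6 to -8.41 percentage points, and calls over all genes from 50 to 118. In the same way the log2 fold changes of NM_001126132 ran from -0.80 to 0.85, of NM_001276347 from -0.57 to 0.21 and of NM_003281 from -0.01 to 0.20, and the share differences (percentage points) of NM_001126132 from -12.2 to 49.6, of NM_001126133 from -46.9 to 2.84, of NM_001276346 from -0.713 to 0.77, of NM_001276347 from -1.55 to 0.058 and of NM_003283 from -6.04 to 12.7, so that the direction of each turned with 1 library. With no filter on low FPKM, 20 genes passed, and robust estimation gave 344. At the transcript level 12 calls became 1 with no filter, 29 from 5 FPKM, and 0 with the block or without any 1 library, and 0 members passed in each case. For each of these, the cause was not tested. The grouping of TNNT2 transcripts by the fetal exon was not run, because transcript names were not matched to exons. TNNT1 transcripts and the fast skeletal genes rest on low levels.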
